A study of Mus musculus with 11 samples.

Results

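The transcription factor p53 and 9 genes that it is known to switch on directly were measured in mouse primary myoblasts, dividing cells that can fuse into muscle fibres. The 10 genes, Trp53 (which encodes p53), Mdm2, Ccng1, Trp53inp1, Cdkn1a, Btg2, Phlda3, Sesn1, Eda2r and Zmat3, were chosen by name and matched to the deposited table through their Ensembl identifiers. Earlier results of these data were known when these genes were chosen. All 10 were found, out of 22104 genes listed, and all 10 passed the filter on low values that left 14729 genes for testing. Bulk RNA sequencing had been done on 11 libraries, and the comparisons ask how 1% oxygen and the loss of the clock factor Bmal1 bear on these genes.

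Cells came from TA (tibialis anterior) muscle of C57BL/6 mice about 8 weeks old and grew in Ham's F-10 supplemented with 2.5 ng/ml of the fibroblast growth factor bFGF and with 20% serum. Wild-type cells were kept for 6 h at 21% oxygen (normoxia, n = 2) or at 1% oxygen (hypoxia, n = 3). Bmal1-/- (knockout) cells were kept for the same time at 21% oxygen (n = 3) or 1% oxygen (n = 3). Knockout cells came from Bmal1-/- animals, the extent of the deletion is not given in the labels, and every group received the same growth factor. Whether replicate libraries stem from different cultures or mice is not stated in the labels, and the p-values accordingly cover only the spread among these libraries, which may be technical. Recovered reads per library ranged from 18707697 to 33613328, with 23027613 reads or more in hypoxia and 21451760 or fewer in normoxia. Arntl, the gene of Bmal1, had normalized counts of 264 to 328 in the 5 wild-type libraries and 98.8 to 134 in the 6 knockout libraries, so its reads were reduced and not absent. The 10 control genes of the hypoxia response, among them Adm and Pfkfb3, all rose in both genotypes. Of all tested genes 1.7% rose in wild-type cells and 3.15% in knockout cells. Of 8 myoblast markers 7 had a mean of at least 10 normalized counts, and Msc did not. Marker sums for endothelial cells and leukocytes stayed at or below 41.2 and 34.7 normalized counts in every library, and the leukocyte genes Ptprc and Adgre1 were not listed in the table.

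In unstressed cells p53 protein is made and destroyed continuously, because the ubiquitin ligase Mdm2 binds it and marks it for degradation. DNA damage and other stresses stop this destruction, p53 accumulates and binds its response elements, and its targets halt the cell cycle, repair DNA, restrain growth or start cell death. Mdm2 is itself a target, which closes a feedback loop, and the level of the Trp53 transcript need not follow the activity of the protein. Severe and lasting lack of oxygen can stabilise p53, and p53 and the Cdkn1a product p21 also take part in the cell-cycle exit of differentiating myoblasts.

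A p53 response element is a pair of 10-base units, and the promoters of the 10 genes were searched for it because p53 binds this pattern. RefSeq promoter windows on GRCm38.p6, 250 bases before to 50 after a start, were found for 8 of the 10 genes (10 windows), with none for Trp53inp1 and Zmat3. The search took the p53 consensus of 20 bases with no spacer, on both strands, and required the central C and G of each 10-base unit. A match with at most 2 mismatches was present in 2 of the 10 windows, against 107 of 32851 windows of all genes (0.326%). These were the upstream one of the 2 Cdkn1a windows, whose match at chr17:29090928-29090947 began 51 bases before the start, and the Ccng1 window, whose match at chr11:40755462-40755481 began 195 bases before it. Trp53 and the downstream start of Sesn1 lay just outside with 3 mismatches, 75 and 173 bases before their starts. At up to 3 mismatches, 4 of the 10 windows and 1.38% of all windows had a match. The 4 stretches are shown first, with letters that fit the consensus in capitals and mismatches in lower case, and then the upstream stretch of the 2 closest promoters with the match in capitals. The Cdkn1a stretch is chr17:29090729-29090975 on the plus strand and the Ccng1 stretch chr11:40755312-40755536 on the minus strand, each read in the direction of its gene and ended where the gene annotation begins.
Cdkn1a match: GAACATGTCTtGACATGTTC
Ccng1 match: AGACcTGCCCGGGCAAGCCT
Trp53 stretch: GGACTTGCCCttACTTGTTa
Sesn1 stretch: AAGCTTGTTTttGCTgGCCT
Cdkn1a promoter: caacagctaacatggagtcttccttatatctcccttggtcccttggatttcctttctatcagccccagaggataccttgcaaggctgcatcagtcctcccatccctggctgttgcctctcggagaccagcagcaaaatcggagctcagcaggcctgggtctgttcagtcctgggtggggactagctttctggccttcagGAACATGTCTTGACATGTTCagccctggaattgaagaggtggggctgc
Ccng1 promoter: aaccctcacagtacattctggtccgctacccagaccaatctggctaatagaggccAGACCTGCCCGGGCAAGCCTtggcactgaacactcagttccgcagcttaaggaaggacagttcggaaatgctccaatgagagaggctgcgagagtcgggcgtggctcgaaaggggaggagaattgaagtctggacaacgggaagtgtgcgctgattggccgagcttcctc

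The remaining windows, those of Eda2r, Btg2, Mdm2, Phlda3 and the downstream start of Cdkn1a and the upstream start of Sesn1, had between 5 and 9 mismatches in their best stretch. The search would miss an element outside these windows or one with a spacer, so it does not show that these genes lack one. Further patterns were counted in the same windows. The E-box CACGTG, to which Bmal1 binds with CLOCK, was in the windows of Trp53 and Eda2r, 2 of 10 against 7.15% of all windows, in both cases after the start. ACGTG or GCGTG, the core to which hypoxia-inducible factors bind and the first of which lies inside the E-box, was in 7 of 10 windows against 43.8% of all. Each is a description of letters in these windows.

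Several p53 targets were lower in hypoxia by modest amounts, and the Trp53 transcript was not among them. In wild-type cells 2 of the 10 genes fell, Trp53inp1 and Eda2r, where 0.468% of all tested genes fell, and 0 rose against 1.7% (2.17% in either direction). In knockout cells 5 of the 10 fell, Trp53inp1, Eda2r, Btg2, Mdm2 and Phlda3, where 0.937% of all tested genes fell, and 0 rose against 3.15% (4.09% in either direction). For the mean hypoxia effect over both genotypes, these 5 genes and Zmat3 fell, 6 of 10 against 2.56% of all tested genes, and 0 rose against 4.89% (7.45% in either direction). Calls were made with limma at an adjusted p under 0.05 after Benjamini-Hochberg adjustment over all 14729 genes. The 10 genes were chosen with earlier results of these data known, so the shares describe them and do not test them as a set. These are bulk samples, in which fewer cells of a type and less RNA per cell cannot be told apart.

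The median log2 change of the 10 genes was -0.15 in wild-type cells and -0.21 in knockout cells, while the median of all tested genes was 0.00 and -0.01, and 9 of the 10 changes were negative in each genotype. All hypoxia libraries lay below all normoxia libraries for 6 of the 10 genes in wild-type cells, where 14.4% of tested genes did so, and for 7 of 10 in knockout cells, where 10.7% did so. In both genotypes at once this held for Trp53inp1, Eda2r, Btg2, Mdm2 and Zmat3, 5 of 10 against 3.71% of tested genes. Sesn1 was the only one of the 10 with all hypoxia libraries above all normoxia libraries, in each genotype, as were 15.4% and 11.9% of tested genes. The 2 hypoxia comparisons share no library, but they share the fitted spread, and the mean effect is made from both.

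**Figure D1:**
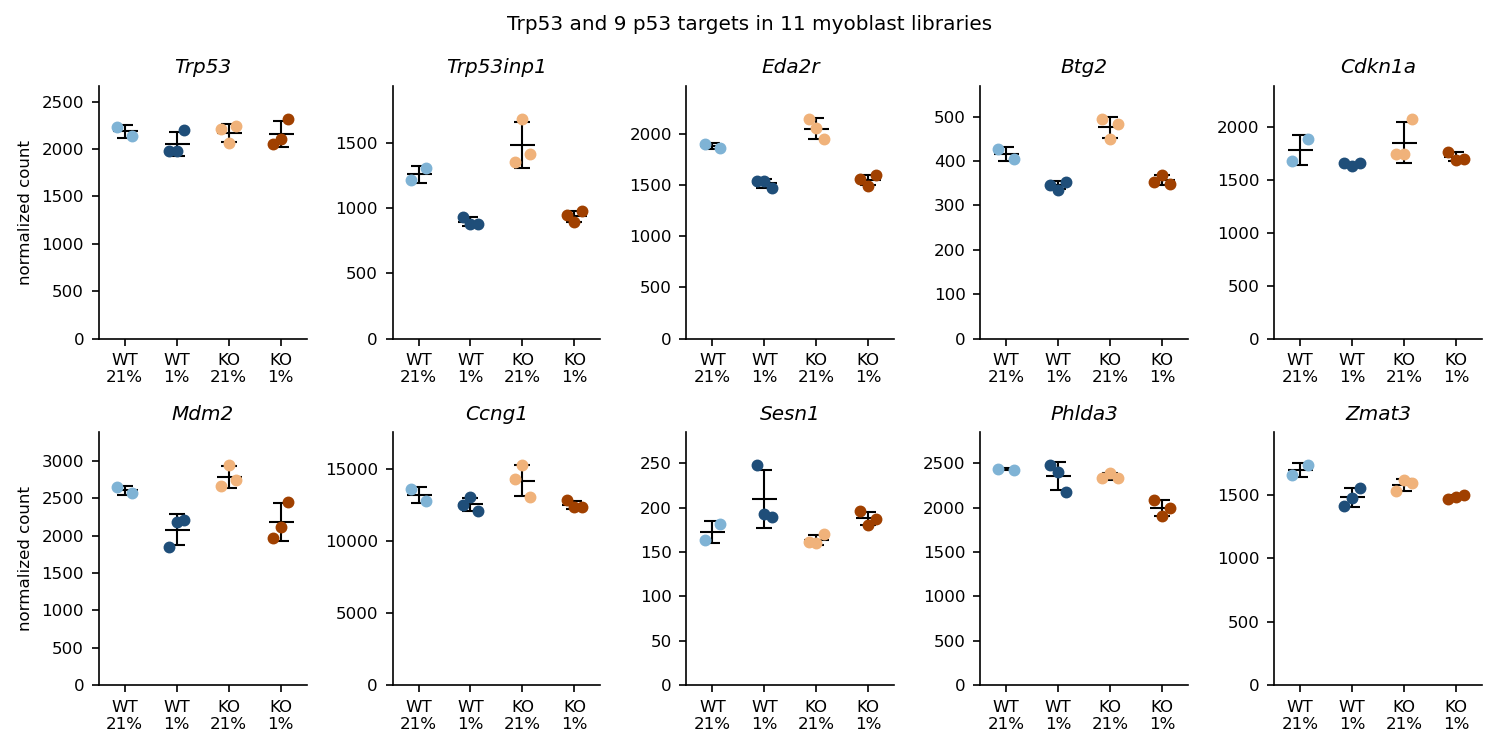
Normalized counts (vertical axis, starting at 0) of the 10 genes in the 11 libraries, with 1 point per library, a bar at the group mean and whiskers of 1 SD; WT is wild-type, KO is Bmal1-/-, and 21% and 1% are the oxygen levels. Trp53inp1 lies between 875 and 975 in every hypoxia library and between 1212 and 1682 in every normoxia library, while Trp53 overlaps between all groups.

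Trp53 itself had normalized counts of 2236 and 2136 (wild-type normoxia), 1980.5, 1976 and 2204 (wild-type hypoxia), 2210.4, 2064 and 2243 (knockout normoxia) and 2054, 2109 and 2318 (knockout hypoxia). The groups overlapped throughout, and no library stood apart. The log2 change in hypoxia was -0.09 in wild-type cells (95% interval -0.23 to 0.05, adjusted p = 0.602) and -0.01 in knockout cells (-0.14 to 0.12, adjusted p = 0.965). The relatives Trp63 and Trp73, which encode the remaining proteins of the p53 family, did not pass the filter on low values.

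Mdm2, the ligase that degrades p53, had normalized counts of 2650.1 and 2565 in wild-type normoxia against 1842, 2177 and 2215 in hypoxia. In knockout cells it had 2658, 2939.6 and 2749 in normoxia against 1965, 2121 and 2456 in hypoxia. Every hypoxia library was below every normoxia library of its genotype, and the hypoxia groups were the more scattered. The log2 change was -0.33 (SE 0.09) in wild-type cells, which did not pass the threshold (adjusted p = 0.0940), and -0.36 (SE 0.08) in knockout cells (adjusted p = 0.0252). Over both genotypes Mdm2 fell by 0.34 on the log2 scale (adjusted p = 0.00331), a call that no alternative setting ended. The knockout call was lost when replicate 2 or 3 of knockout normoxia, or 1 or 2 of knockout hypoxia, was left out (adjusted p = 0.0511 to 0.111). In wild-type cells it was called by DESeq2 on recovered reads (adjusted p = 0.0201) and in the fit without knockout hypoxia replicate 3 (adjusted p = 0.0461).

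Ccng1 encodes cyclin G1, which brings a phosphatase to Mdm2 and so feeds back on p53. It was the most abundant of the 10 genes, with normalized counts of 13618 and 12821 (wild-type normoxia) and 12516, 13049.8 and 12142 (wild-type hypoxia). In the knockout, counts were 14311, 15280.3 and 13094 at 21% oxygen and 12852, 12363 and 12421 at 1% oxygen. Wild-type groups overlapped and knockout groups did not. The log2 change was -0.07 in wild-type cells (adjusted p = 0.647) and -0.18 in knockout cells (SE 0.05, adjusted p = 0.0727), neither past the threshold. In knockout cells and in the mean over genotypes it was called by DESeq2 (adjusted p = 0.0202 and 0.0231) and without knockout normoxia replicate 3 (adjusted p = 0.0110 and 0.0114).

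Trp53inp1 encodes a stress-induced nuclear protein that helps the activating phosphorylation of p53 and also takes part in autophagy. Normalized counts were 1212 and 1305 (wild-type normoxia) against 932, 880.0 and 875 (wild-type hypoxia). In knockout cells they were 1353, 1682 and 1414 at 21% oxygen against 944, 890.0 and 975 at 1% oxygen. The 5 normoxia libraries lay above the 6 hypoxia libraries without overlap, and knockout normoxia replicate 2 was the highest. It fell by 28.8% in wild-type cells (log2 change -0.49, SE 0.08, adjusted p = 0.00501) and fell by 36.6% in knockout cells (-0.66, SE 0.07, adjusted p = 0.000124), the most negative change of the 10 genes in each genotype. Leaving out replicate 2 of wild-type normoxia ended the wild-type call (adjusted p = 0.0914), while the knockout call was kept in every alternative.

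Cdkn1a encodes p21, the inhibitor of cyclin-dependent kinases through which p53 stops the cell cycle. The promoter window of its upstream start and that of Ccng1 carried the closest p53 consensus matches, with 1 mismatch each. The window of the downstream start of Cdkn1a had 7 mismatches in its best stretch, and the gene counts do not tell the starts apart. Normalized counts were 1680.0 and 1883 (wild-type normoxia), 1656, 1628 and 1653 (wild-type hypoxia), 1741, 1739 and 2074 (knockout normoxia) and 1763, 1685 and 1700.3 (knockout hypoxia). In both normoxia groups 1 library was higher than the rest, and only the knockout groups overlapped between oxygen levels. The log2 change was -0.11 in wild-type cells (95% interval -0.27 to 0.05, adjusted p = 0.565) and -0.10 in knockout cells (-0.25 to 0.04, adjusted p = 0.452). A transcript (AC167363.2, still to be experimentally established) annotated on the opposite strand shares 273 exon bases with Cdkn1a, and how the authors' counting used strand is not given in the sources used here.

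Btg2, an antiproliferative gene whose product recruits the deadenylase complex that shortens mRNA tails, had normalized counts of 427 and 405 (wild-type normoxia) against 347, 336 and 354 (wild-type hypoxia). In knockout cells it had 495, 449.8 and 483 at 21% oxygen against 352, 369.6 and 349 at 1% oxygen. Here too the 5 normoxia libraries lay above the 6 hypoxia libraries. The log2 change was -0.27 (SE 0.07) in wild-type cells, which missed the threshold (adjusted p = 0.0988), and -0.41 (SE 0.07) in knockout cells, where Btg2 fell by 24.9% (adjusted p = 0.00283), a call that every alternative kept.

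Phlda3 encodes a small membrane-binding protein that holds back the kinase Akt. Its normalized counts were 2437 and 2424 (wild-type normoxia), 2474, 2404 and 2173 (wild-type hypoxia) and 2328, 2394 and 2330.4 (knockout normoxia). In knockout hypoxia they were 2088, 1902 and 1993, below every other library. The log2 change in hypoxia was -0.05 in wild-type cells (95% interval -0.18 to 0.08, adjusted p = 0.785) and -0.24 in knockout cells (-0.35 to -0.12, adjusted p = 0.0204). That knockout call ended when replicate 1 or 2 of knockout normoxia, or 2 or 3 of knockout hypoxia, was left out (adjusted p = 0.0609 to 0.0964). The call for the mean effect (-0.14, adjusted p = 0.0420) was lost without the filter on low values (adjusted p = 0.0572) and in 9 of the 11 fits that left out 1 library, all but those without replicate 1 of either hypoxia group (adjusted p up to 0.117).

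Sesn1, which encodes sestrin 1, a restrainer of the growth kinase complex mTORC1, was the 1 gene of the 10 with a positive log2 change in both genotypes. Normalized counts were 164 and 182 (wild-type normoxia), 248, 193 and 189.7 (wild-type hypoxia), 161, 159.9 and 170.4 (knockout normoxia) and 196, 181 and 188 (knockout hypoxia). The hypoxia libraries were above the normoxia libraries of their genotype, with wild-type hypoxia replicate 1 the highest. The log2 change was 0.27 in wild-type cells (SE 0.12, adjusted p = 0.349) and 0.20 in knockout cells (SE 0.11, adjusted p = 0.381), and neither passed the threshold. Without wild-type hypoxia replicate 1 the wild-type value was 0.15.

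Eda2r encodes the receptor for ectodysplasin A2, related to the tumour necrosis factor receptors and linked to muscle wasting in mice. It had normalized counts of 1902 and 1864 (wild-type normoxia) against 1542, 1544 and 1469.9 (wild-type hypoxia). In knockout cells it had 2148, 2064 and 1948 at 21% oxygen against 1559, 1496 and 1597 at 1% oxygen. The normoxia libraries again lay above all hypoxia libraries. It fell by 19.4% in wild-type cells (log2 change -0.31, SE 0.05, adjusted p = 0.00626) and fell by 24.5% in knockout cells (-0.40, SE 0.05, adjusted p = 0.000219). Leaving out either library of wild-type normoxia ended the wild-type call (adjusted p = 0.0750 and 0.0530), and the knockout call was kept in every alternative.

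Zmat3, a zinc-finger protein that binds RNA and acts on splicing and mRNA stability, had normalized counts of 1652 and 1729.6 (wild-type normoxia), 1409, 1472 and 1553 (wild-type hypoxia), 1527, 1612 and 1590.2 (knockout normoxia) and 1463, 1480.4 and 1499 (knockout hypoxia). Groups did not overlap between oxygen levels within a genotype, but the differences were small. The log2 change was -0.19 in wild-type cells (SE 0.05, adjusted p = 0.0973) and -0.09 in knockout cells (SE 0.05, adjusted p = 0.363), and the mean over both, -0.14, passed the threshold (adjusted p = 0.0302). That call was lost in 8 of the 11 fits that left out 1 library, and was kept only without replicate 1 of knockout normoxia or replicate 3 of either hypoxia group (adjusted p up to 0.124).

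**Figure D2:**
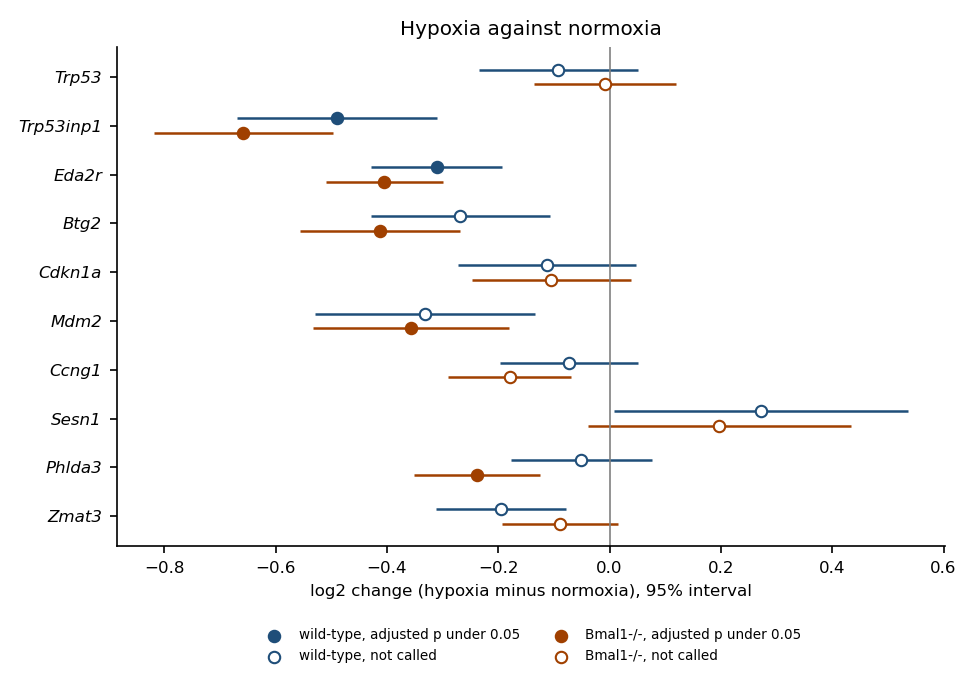
Log2 change in hypoxia (horizontal axis, hypoxia minus normoxia) with 95% intervals for the 10 genes in wild-type (blue) and Bmal1-/- (brown) cells; filled points passed an adjusted p of 0.05 in limma. Trp53inp1 is lowest in both genotypes at -0.49 and -0.66, and Sesn1 is the only gene to the right of 0 in both.

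As a description of how the 9 targets ran together, the log2 values of each gene were scaled to mean 0 and SD 1 over the 11 libraries and averaged over the 9. This mean was 0.393 to 0.882 in the 5 normoxia libraries and -0.793 to -0.390 in the 6 hypoxia libraries. Each gene's Pearson correlation with that mean, which includes the gene itself and spans the oxygen levels, was highest for Trp53inp1 at 0.97 and Eda2r at 0.95 and lowest for Sesn1 at -0.63 (n = 11 libraries). Trp53, which is not in the mean, had a correlation of 0.25. Within groups, once group means were removed, the targets did not all run together. The most negative pairs were Trp53inp1 with Btg2, at a correlation of -0.86, and Cdkn1a with Ccng1, at -0.78. The most positive were Mdm2 with Zmat3, at 0.67, and Eda2r with Ccng1, at 0.62. These are the extremes of all pairs, and the 11 libraries leave 7 residual degrees of freedom once the group means are removed.

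Some sums of cell-type markers also differed between the oxygen levels. For the calls below, 1.7% of all tested genes rose and 0.468% fell in wild-type cells. In knockout cells 3.15% rose and 0.937% fell, and in the mean effect 4.89% rose and 2.56% fell. The sum of the 5 pericyte and smooth muscle markers, most of it Acta2, was 32512 to 33662 normalized counts in wild-type normoxia and 28744 to 29957 in wild-type hypoxia, and 28312 to 28768 against 25347 to 25791 in the knockout. Of these markers 0 rose and 1 fell in each genotype, while the median log2 change of the 5 was positive, at 0.11 in each. The fibroblast markers went the other way in the knockout, from sums of 1639 to 1955 in normoxia to 2323 to 2594 in hypoxia, and 2 of the 7 tested rose there and in the mean effect. In wild-type cells their sums overlapped (3217 to 3722 against 3608 to 4133) and 0 of 7 were called. Of the 7 markers of differentiating muscle 2 fell in the mean effect and 0 were called in either genotype alone. The myoblast markers summed to 46961 to 47198 in wild-type normoxia against 43503 to 45747 in wild-type hypoxia, overlapped in the knockout, and had 0 of 7 called. The part of these markers in the results for the p53 targets, like that of the greater depth of the hypoxia libraries, was not tested.

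Levels of different genes were compared as normalized counts per kb of merged exon, using the GENCODE M21 gene models on GRCm38. Ccng1 was the highest in every group, with means of 3572 to 4051 per kb, and Phlda3 was second, with means of 1279 to 1559. Trp53, Mdm2 and Cdkn1a followed with means of 409 to 547 per kb. In knockout normoxia Mdm2 overlapped with Trp53 and Trp53 with Cdkn1a over libraries, and Mdm2 and Cdkn1a also overlapped in wild-type normoxia and in knockout hypoxia. Below them came Eda2r with means of 258 to 349 and Trp53inp1 with 138 to 229. Btg2 and Zmat3 had means of 126 to 174 and overlapped with each other except in knockout normoxia, and in wild-type hypoxia Trp53inp1 also overlapped with Zmat3. Sesn1 was the lowest in every group, with means of 41.2 to 52.7 per kb.

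**Figure D3:**
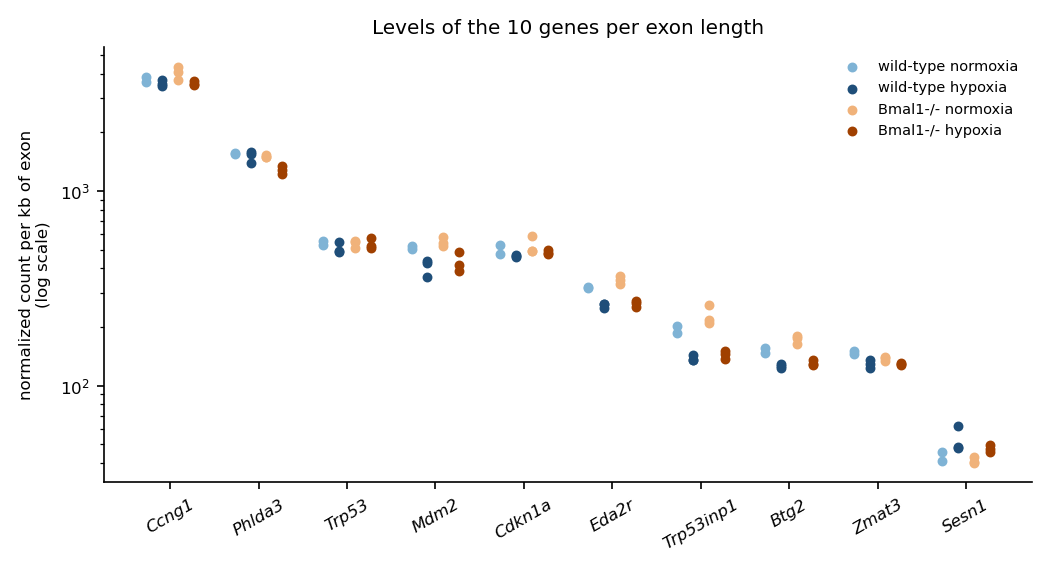
Normalized count per kb of merged exon (vertical axis, log scale) of the 10 genes in each library, coloured by group and ordered from the highest to the lowest. Ccng1 lies at 3457 per kb or higher in every library and Sesn1 at 62.2 or lower.

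Loss of Bmal1 was compared with wild-type at each oxygen level. In normoxia 0 of the 10 genes were called in either direction, against 9.09% of all tested genes (5.66% lower and 3.44% higher). At an unadjusted p under 0.05 there were 3 with limma, where 3451 of all 14729 tested genes were, a share near that of the 10. There were 3 with edgeR and 1 with DESeq2, which also called 0. The 3 in limma were Trp53inp1, with a log2 difference of 0.23 (95% interval 0.05 to 0.41, adjusted p = 0.107), Btg2 with 0.19 (0.03 to 0.35, adjusted p = 0.135) and Eda2r with 0.12 (0.01 to 0.24, adjusted p = 0.188), each higher in the knockout. All knockout normoxia libraries lay above both wild-type ones for Trp53inp1, Eda2r, Btg2 and Mdm2, 4 of 10 against 18.8% of tested genes. They lay below for Phlda3 and Zmat3, 2 of 10 against 19.6%. The differences of Trp53 (-0.01, 95% interval -0.15 to 0.13) and Cdkn1a (0.05, -0.11 to 0.21) were the smallest in size together with that of Phlda3 (-0.05, -0.17 to 0.08).

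In hypoxia 1 of the 10 genes was called, against 8.95% of all tested genes (5.61% lower and 3.33% higher). Phlda3 fell by 15.1% in the knockout (log2 difference -0.24, SE 0.05, adjusted p = 0.0115), with all 3 knockout libraries below all 3 wild-type libraries. The call ended when replicate 1 or 2 of wild-type hypoxia, or 2 of knockout hypoxia, was left out (adjusted p = 0.0507 to 0.0634). Phlda3 was the only one of the 10 to lie wholly below, as did 13.9% of tested genes, and Cdkn1a the only one to lie wholly above, as did 12.4%, with a difference of 0.06 (95% interval -0.08 to 0.20). The genotype and hypoxia comparisons share libraries, so the low Phlda3 values of knockout hypoxia enter both.

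Cell-type markers differed between the genotypes too. Of all tested genes 3.44% rose and 5.66% fell in the knockout in normoxia, and 3.33% rose and 5.61% fell in hypoxia. Markers of differentiating muscle summed to 20003 to 26606 normalized counts in the wild-type libraries and 32348 to 37282 in the knockout, and 5 of the 7 rose in the knockout at each oxygen level. Fibroblast markers summed to 3217 to 4133 in wild-type and 1639 to 2594 in knockout libraries, and 6 of the 7 tested fell at each oxygen level. Myoblast markers summed to 43503 to 47198 in wild-type and 48498 to 50692 in knockout libraries. Of the 7 tested, 2 rose in the knockout in normoxia and 3 in hypoxia, and 0 fell. Of the 5 pericyte and smooth muscle markers 2 fell and 0 rose in the knockout at each oxygen level. The part of all these markers in the genotype difference of Phlda3 was not tested.

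**Figure D4:**
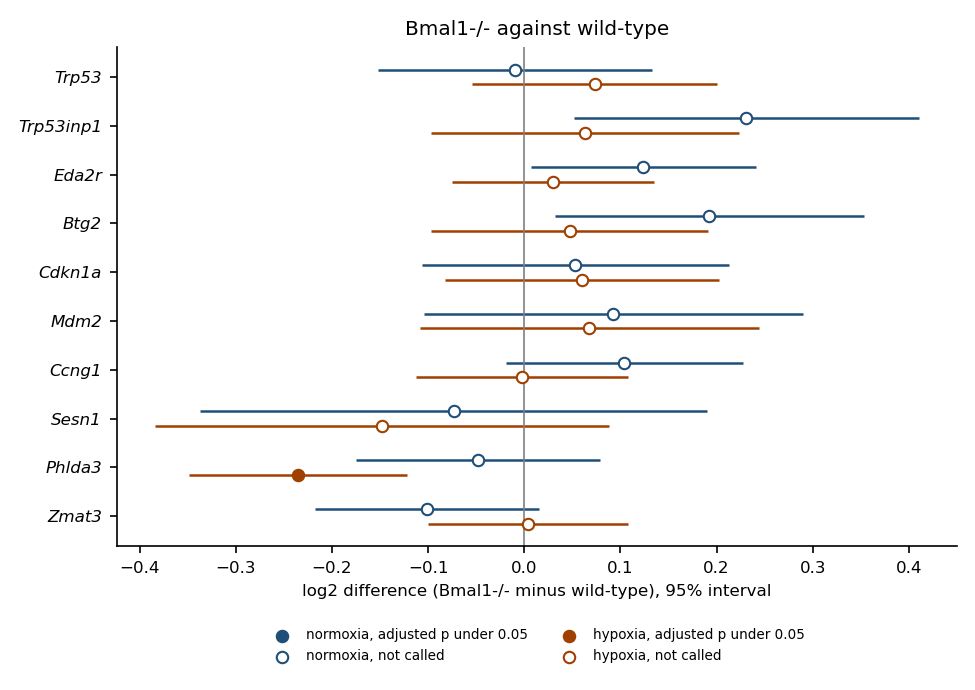
Log2 difference between Bmal1-/- and wild-type cells (horizontal axis, Bmal1-/- minus wild-type) with 95% intervals for the 10 genes in normoxia (blue) and hypoxia (brown); filled points passed an adjusted p of 0.05 in limma. Phlda3 in hypoxia, at -0.24, is the only filled point.

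Whether hypoxia acted differently in the genotypes was tested with the interaction of genotype and oxygen. None of the 10 genes was called (0 of 10, against 0.00679% of all tested genes, which is 1 gene), and 1 had an unadjusted p under 0.05 with limma (784 of all 14729 tested genes did), with edgeR and with DESeq2, which also called 0. With limma it was Phlda3, whose hypoxia change was lower in the knockout by a log2 difference of -0.19 (95% interval -0.36 to -0.02, adjusted p = 0.917). The intervals are wide compared with the changes, at -0.41 to 0.07 for Trp53inp1, -0.36 to 0.07 for Btg2, -0.25 to 0.06 for Eda2r and -0.29 to 0.24 for Mdm2. That Btg2, Mdm2 and Phlda3 passed the threshold in the knockout and not in wild-type cells, which had 2 normoxia libraries, therefore does not show that the genotypes differ.

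The other genes of the p53 network were described by lists. Of all tested genes 4.89% rose and 2.56% fell in the mean hypoxia effect. In wild-type cells 1.7% rose and 0.468% fell, and in knockout cells 3.15% rose and 0.937% fell. Of 15 other p53 targets of cell-cycle arrest and DNA repair, 0 rose and 1 fell in each genotype, and it was not the same gene. In wild-type cells it was Gadd45a (-0.33, adjusted p = 0.0302), which changed by -0.09 in knockout cells (adjusted p = 0.542). In knockout cells it was Polk (-0.24, adjusted p = 0.0483). Some fits that left out 1 library ended the Gadd45a call, and most ended the Polk call. In the mean hypoxia effect 0 rose and 6 fell, with a median log2 change of -0.19 against 0.00 for all tested genes. Those 6 included Plk2 (-0.21, adjusted p = 0.00733) and Plk3 (-0.39, adjusted p = 0.0160), both polo-like kinases of the stress response. They also included Gadd45a (mean effect -0.21, adjusted p = 0.0195), a DNA damage sensor. The calls that follow are those of the mean effect. Plk3 was no longer called without replicate 1 of wild-type normoxia (adjusted p = 0.0811), nor was Gadd45a without either library of that group or without replicate 2 of knockout hypoxia (adjusted p up to 0.0696).

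Of 14 other p53 targets of cell death, 0 rose and 4 fell in the mean effect, with a median of -0.17. In wild-type cells 1 fell and in knockout cells 3. The shares of all tested genes that fell were 2.56% in the mean effect, 0.468% in wild-type and 0.937% in knockout cells. Ei24, an endoplasmic reticulum protein first found as induced by p53, had a mean change of -0.23 (adjusted p = 0.00101). The nuclease gene Aen had -0.23 (adjusted p = 0.00273) and Tnfrsf10b, the mouse receptor of the death ligand TRAIL, -0.25 (adjusted p = 0.00671), and each of these 3 calls was kept in every alternative.

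Among 14 targets of metabolism and autophagy, 1 rose and 3 fell in the mean effect, and the median was -0.05. Of all tested genes 4.89% rose and 2.56% fell in that effect. Ddit4, an inhibitor of mTORC1 that hypoxia-inducible factors also switch on, rose by 1.41 on the log2 scale (adjusted p = 6.4e-08), against the direction of most of the 10 genes. Normalized counts of Ddit4 were 327 and 344 in wild-type normoxia and 775 to 1026 in wild-type hypoxia. The lipase gene Abhd4 fell by 0.33 (adjusted p = 0.000368) and Dcxr, a carbonyl reductase, by 0.54 (adjusted p = 0.00145). Among 21 regulators of p53, 1 rose and 1 fell, near those shares, and the median was 0.00. Trp53bp1, a DNA repair protein that binds p53, fell by 0.24 (adjusted p = 0.00464), and Ppp1r13l, which encodes the p53 inhibitor iASPP, rose by 0.87 (adjusted p = 0.00982). Normalized counts of Ppp1r13l were low, at 26.1 to 55.9 in the normoxia libraries and 65.4 to 98.9 in the hypoxia libraries. Its mean call was kept in every alternative. It was not called in wild-type cells alone, and its knockout call (adjusted p = 0.0405) was lost in most fits that left out 1 library.

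The cell-cycle genes that p53 and p21 repress through the DREAM complex gave 2 risen and 2 fallen of 20 in the mean effect, with a median of 0.05. The shares of all tested genes were 4.89% risen and 2.56% fallen. Among relatives of the 10 genes, Ccng2, which encodes the cyclin G2 paralog of Ccng1, rose by 0.89 in wild-type cells (adjusted p = 1.22e-05) and 0.67 in knockout cells (adjusted p = 5.66e-05). Its normalized counts were 920 and 994 in wild-type normoxia and 1669.7 to 1977 in wild-type hypoxia, while Ccng1 changed by -0.07 in the same libraries.

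**Figure D5:**
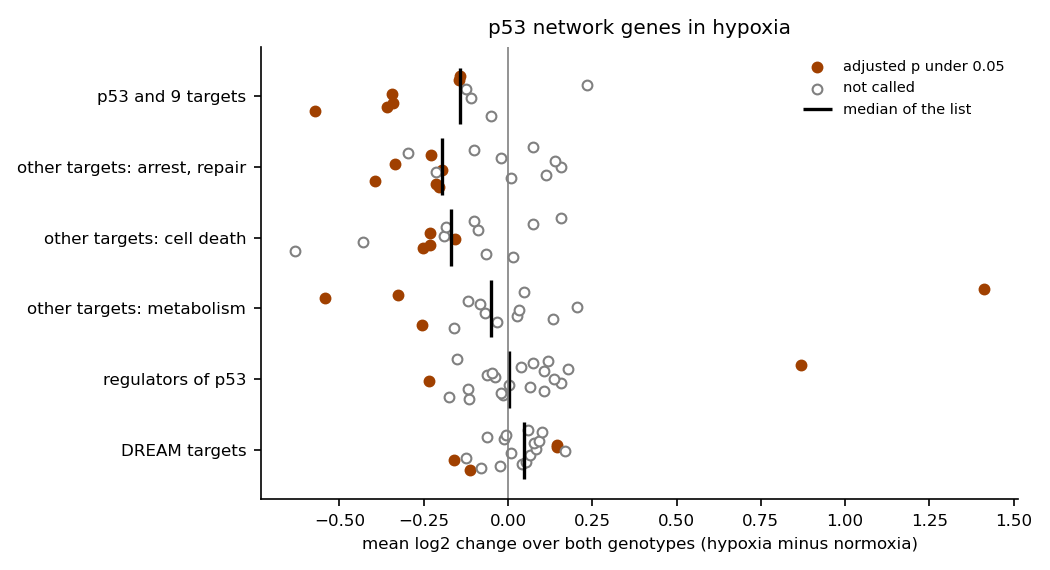
Mean log2 change in hypoxia over both genotypes (horizontal axis) for each gene of the p53 lists, with 1 point per gene, filled where limma's adjusted p was under 0.05 and a bar at the median of the list. The medians of the 3 target lists other than the 10 genes are -0.19, -0.17 and -0.05, and those of the regulators and the DREAM targets 0.00 and 0.05.

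Between genotypes the network lists held calls in both directions. Of all tested genes 3.44% rose and 5.66% fell in the knockout in normoxia, and 3.33% rose and 5.61% fell in hypoxia. In normoxia 2 of the 15 arrest and repair targets rose in the knockout and 1 fell, and in hypoxia 2 rose. The gene that fell in normoxia was Plk3 (-0.71, adjusted p = 0.00405). Gadd45a was higher in knockout hypoxia by 0.54 on the log2 scale (adjusted p = 8.23e-05) and Plk2 by 0.35 (adjusted p = 0.00122), calls kept in every alternative. Of the 14 metabolic targets 3 fell at each oxygen level, with Ephx1, an epoxide hydrolase, lower by a log2 difference of -0.60 in normoxia (adjusted p = 0.00051) and -0.74 in hypoxia (adjusted p = 2.55e-05). Ddit4 was lower in the knockout too, with -0.61 in normoxia (adjusted p = 0.00561) and -0.62 in hypoxia (adjusted p = 0.00185). The locus Cdkn2a, among whose products Arf shields p53 from Mdm2, was lower in knockout normoxia (-0.41, adjusted p = 0.00518). Its products were not counted apart, so the value is not one of Arf alone. In hypoxia the difference of Cdkn2a was -0.16 and did not pass the threshold (adjusted p = 0.211). Within the knockout Cdkn2a rose in hypoxia by 0.30 (adjusted p = 0.0310), a call that some fits leaving out 1 library ended. Of the 20 DREAM targets 6 rose in the knockout in normoxia and 5 in hypoxia, and 0 fell. Cdkn1a, through which p53 acts on those genes, differed by 0.05 and 0.06 in the same comparisons, neither past the threshold (adjusted p = 0.724 and 0.692). No gene of any list (0 in each) was called for a differing hypoxia response between genotypes.

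The 5 genes whose profiles over the 11 libraries were most like the mean of the 9 targets, among genes with a mean of at least 50 normalized counts, were Dlst, Naa20, Pdp1, Ei24 and Mbnl1, with Pearson correlations of 0.97, 0.95, 0.94, 0.94 and 0.93. Ei24 is itself one of the p53 targets listed above. The normalized counts of Dlst, which encodes a subunit of a tricarboxylic acid cycle enzyme, were 4101 ± 14.2 (SD, n = 2) in wild-type normoxia and 3772 ± 24.1 (SD, n = 3) in wild-type hypoxia, and 4116 ± 44.3 against 3735 ± 34.2 (SD, n = 3 each) in the knockout. Pdp1, a phosphatase of pyruvate dehydrogenase, had a mean hypoxia change of -0.23 (SE 0.04). The mean of the targets was itself lower in every hypoxia library than in every normoxia library. Lower values in hypoxia of genes chosen by likeness to it therefore follow from the choice.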

How the data were processed

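Total RNA sequencing of 11 myoblast libraries was analysed from the deposited gene table. The deposited values are signal: as their steps show, the authors scaled the gene counts of each library by 1 size factor. Whole reads were recovered for 100% of values within 0.01 read, and 0 columns were left unused. The tools named, per the submitters' processing notes, are bcl2fastq, STAR, Picard, HTSeq, RSEM and DESeq2 with the mm10 build, and the notes give no version or role. How reads shared with pseudogenes or overlapping genes were assigned is not given in the sources used here.

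A gene was tested when 2 or more libraries reached a value of 10, which kept 14729 of 22104. Values were transformed to log2(value + 1), which understates changes of low genes, and limma 3.58.1 (R 4.3.3) fitted 1 model of 4 groups with a variance trend, with 7 residual and 6.35 prior degrees of freedom. Its 6 comparisons were two-sided. Benjamini-Hochberg adjustment ran across all tested genes, calls needed an adjusted p under 0.05, and only called genes are said to rise or fall. Alternatives were a pseudocount of 5, no filter, TMM scaling, edgeR 4.0.16 and DESeq2 1.42.0 on recovered reads, and leaving out each library. The fit was tested on simulated data. Between libraries of a group the chi-square over degrees of freedom was 4.325 to 20.86, more than counting error alone gives, so none was a copy of another. These values do not show whether the libraries came from separate cultures or were technical repeats.

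The 10 genes, the other lists, the tests and the alternatives were chosen with earlier results of these data known. The text names the 10 genes, Arntl, the 5 genes most like the targets, and some called members of the other lists. Those called members come from the up to 3 per list and comparison with the smallest adjusted p. Not all of these are named. Promoters came from RefSeq, and exon lengths and overlaps from GENCODE M21, both on GRCm38. No pairing was used, since replicate numbers carry no link across groups in the labels.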

Additional observations from a re-analysis of the deposited data

How the results depend on the processing

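Of 960 values of the 10 genes under the alternatives, 922 stayed on the same side of the threshold, 32 lost a call, 6 gained one and 0 called values changed direction; the calls that changed are given with each gene. Leaving out 1 library in turn, the number of the 10 genes called lower was 0 to 3 in wild-type hypoxia (0 without wild-type normoxia replicate 2, 1 without replicate 1), 3 to 5 in knockout hypoxia (3 without knockout normoxia or hypoxia replicate 2), 4 to 5 in the mean effect and 0 to 1 for the knockout in hypoxia. Over all tested genes the same fits called 161 to 320 genes in wild-type hypoxia, 370 to 628 in knockout hypoxia, 689 to 1075 for the mean effect, 668 to 1355 and 916 to 1340 between genotypes in normoxia and hypoxia, and 1 to 3 for the difference between the hypoxia effects. That difference was called for 0 genes with a pseudocount of 5, 0 with edgeR and 4 with DESeq2, and had an unadjusted p under 0.05 for 784 genes with limma, 777 with edgeR and 523 with DESeq2. The cause of these shifts was not tested. The TMM factors were 0.997 to 1.00, so scaling left the directions of the 10 genes as they were. Leaving out a wild-type normoxia library leaves 1 sample there, assumed to vary like the other groups. No paired analysis was possible because the labels give no replicate link between groups.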
